A study of Mus musculus with 22 samples.

Results

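The windows described here are stretches of chromatin that were similarly open in T-bet- cDC2s and cDC1s and less open in T-bet+ cDC2s of mouse spleen. They were chosen from read counts scaled to the total of each library (CPM) of the assay for transposase-accessible chromatin (ATAC-seq) in 150-base windows centred on peak summits. A window was a member if both T-bet- cDC2 libraries and both cDC1 libraries reached 3 CPM, if the lowest of these 4 values was at least 1.5 times the higher of the T-bet+ cDC2 values, and if the T-bet- cDC2 and cDC1 means lay less than 1.5-fold apart. The rule kept 1396 of 177956 windows. Because it used all 6 ATAC-seq libraries, the accessibility values are given as a description, with no test, and the tests below use RNA-seq libraries that the rule did not see.

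Conventional dendritic cells (cDCs) take up antigen and present it to T cells. They form 2 main branches, the XCR1+ cDC1s, which depend on the transcription factor IRF8 and are known for cross-presentation to CD8 T cells, and the CD11b+ cDC2s, which depend more on IRF4 and are known for priming CD4 T cells. T-bet, encoded by Tbx21, is a T-box transcription factor best known from T helper and innate lymphoid cells, and here it divides the cDC2s. In ATAC-seq the Tn5 transposase inserts adapters where DNA is not wrapped in nucleosomes, so that active promoters and enhancers collect reads, and the sequence of such a window holds the short motifs that transcription factors bind.

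The cells came from untreated Tbx21RFP-cre mice, which carry a red fluorescent reporter at the Tbx21 locus, were 6 to 10 weeks old and of both sexes. CD11b+XCR1- cells with the reporter (T-bet+ cDC2s), CD11b+XCR1- cells without it (T-bet- cDC2s) and CD11b-XCR1+ cells (cDC1s) were sorted from Lin-CD64-Ly6C-CD11c+MHCII+ cells of pooled organs, so that T-bet+ here means reporter positive. ATAC-seq was made from 2 libraries per subset of spleen. RNA-seq was made from 3 libraries per subset of spleen and, in mesenteric lymph node (MLN), from 3 cDC1, 2 T-bet- cDC2 and 2 T-bet+ cDC2 libraries.

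The libraries held 7270164 to 10081555 reads in windows for ATAC-seq and 20993220 to 29006549 reads on genes for RNA-seq. Tbx21 was at 22.2, 23.9 and 16.6 CPM in the spleen T-bet+ cDC2 libraries and at or under 2.28 CPM in the other 6. The summed CPM of 8 cDC1 markers was 6250 to 7130 in spleen cDC1s and at most 577 in the cDC2 libraries, and that of 6 cDC2 markers was at least 1730 in cDC2s and at most 54.4 in cDC1s. T-bet- cDC2 replicates 1 and 2 and cDC1 replicate 3 stood apart from the other 6 spleen RNA libraries in their deviations from the gene means. These deviations correlated negatively with the GC content of the most GC-rich 100-base stretch of each gene's longest transcript. The Spearman correlation was -0.456 to -0.301, against 0.191 to 0.324 in the other 6 libraries, over 7685 genes.

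The sequences of some of the windows are shown first, to let the letters be read beside the values that follow. Of the 11 intronic and promoter members with the largest differences, 6 are printed, and the window upstream of Ocstamp is added because it holds matches to 3 of the motifs that were most frequent among members (it was chosen after its values were seen). All are the plus strand of GRCm38 (mm10), 5′ to 3′, and capitals mark motif matches, namely AP-1 (TGANTCA) in the Abcc4, Tram2 and Ocstamp windows, C/EBP (TTGCNNAA) in the Fam83d and Aoah windows, the E-box CAGCTG and the NFI letters TTGGCA in the Tram2 window, and the Ets-IRF composite (GGAANNGAA) and PU.1 (GAGGAAGT) in the Ocstamp window. The Sh2d6 and Frmd4a windows held none of the 26 motifs searched. The positions are chr6:72522434-72522583 (Sh2d6), chr14:118662120-118662269 (Abcc4), chr2:4290539-4290688 (Frmd4a), chr2:158772929-158773078 (Fam83d), chr1:21014585-21014734 (Tram2), chr13:20797991-20798140 (Aoah) and chr2:165402070-165402219 (Ocstamp).
Sh2d6: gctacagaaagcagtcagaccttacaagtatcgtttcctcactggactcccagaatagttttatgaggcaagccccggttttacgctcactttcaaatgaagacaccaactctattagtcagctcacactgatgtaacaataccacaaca
Abcc4: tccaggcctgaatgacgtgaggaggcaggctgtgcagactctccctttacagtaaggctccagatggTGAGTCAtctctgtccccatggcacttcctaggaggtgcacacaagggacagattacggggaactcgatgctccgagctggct
Frmd4a: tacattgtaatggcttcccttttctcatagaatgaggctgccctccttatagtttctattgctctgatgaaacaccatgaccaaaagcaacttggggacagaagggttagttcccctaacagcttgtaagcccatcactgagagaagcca
Fam83d: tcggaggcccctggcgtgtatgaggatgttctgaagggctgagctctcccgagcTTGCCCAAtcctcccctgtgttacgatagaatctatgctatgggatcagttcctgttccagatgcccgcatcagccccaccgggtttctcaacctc
Tram2: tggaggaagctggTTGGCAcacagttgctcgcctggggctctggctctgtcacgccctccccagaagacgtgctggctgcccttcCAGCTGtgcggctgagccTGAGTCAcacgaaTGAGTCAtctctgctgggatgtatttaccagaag
Aoah: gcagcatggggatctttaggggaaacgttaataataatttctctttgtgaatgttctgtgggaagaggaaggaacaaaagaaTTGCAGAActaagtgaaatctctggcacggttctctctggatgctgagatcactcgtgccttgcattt
Ocstamp: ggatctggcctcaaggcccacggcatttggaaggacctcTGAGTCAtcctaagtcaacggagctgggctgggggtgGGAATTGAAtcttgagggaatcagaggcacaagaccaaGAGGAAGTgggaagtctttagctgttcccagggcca

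Across the 1396 members the median level was 6.23 and 6.51 CPM in the T-bet- cDC2 libraries, 6.78 and 7.02 CPM in the cDC1 libraries, and 2.38 and 2.59 CPM in the T-bet+ cDC2 libraries. Members were thus mostly windows of moderate height that were reduced, rather than closed, in T-bet+ cDC2s. In 462 members (33.1%) both T-bet+ libraries themselves reached 3 CPM, and in 35 (2.51%) both stayed under 1 CPM. The ratio of the mean of the 4 open libraries to the T-bet+ mean had a median of 2.54 and ran from 1.62 to 13.2, with 421 members at 3-fold or more and 157 at 4-fold or more. Reads in members made up 0.479% and 0.522% of all window reads in the T-bet+ libraries and 1.2% to 1.34% in the other 4. With scale factors from the trimmed mean of M-values (TMM) in place of total reads, the median ratio over the members was 2.31 (0.932 against 1.02 over the 51392 windows that reached 3 CPM in the 4 libraries), and 967 of the 1396 windows still met the rule.

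**Figure D1:**
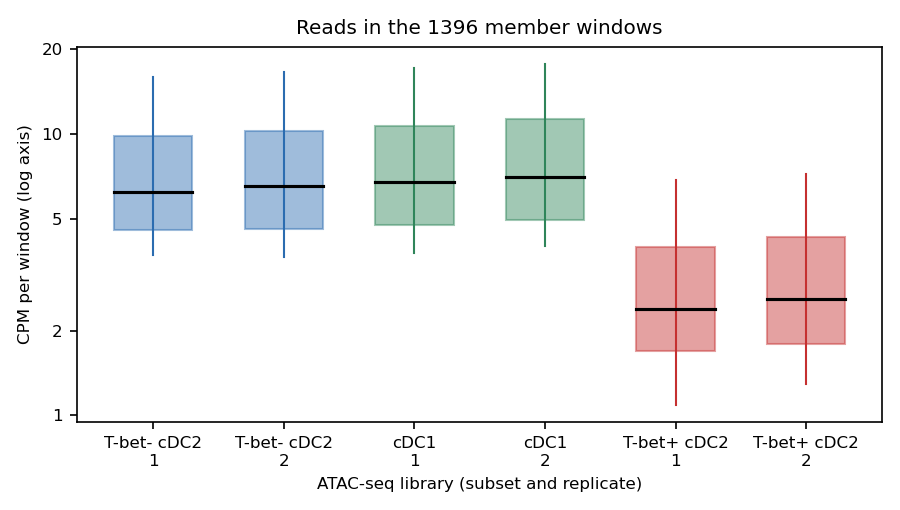
CPM of the 1396 member windows in each ATAC-seq library, on a log axis; boxes span the quartiles, black lines mark medians and thin lines run from the 10th to the 90th percentile. The medians lie at 6.23 to 7.02 CPM in the T-bet- cDC2 and cDC1 libraries and at 2.38 and 2.59 CPM in the T-bet+ cDC2 libraries, a difference that the rule requires.

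Between the subsets that share the windows, cDC1s were slightly higher in most members. The T-bet- cDC2 mean exceeded the cDC1 mean in 494 members (35.4%), with a median ratio of 0.918, whereas it did so in 56.8% of the 51392 windows that reached 3 CPM in the 4 libraries. With TMM the share was 47.7% of members and 64.0% of those windows, and the median ratio over members was 0.981. The size of the difference between the subsets within members thus rests on the scale and was small with TMM. A further 983 windows met the other conditions but had means 1.5-fold apart or more, of which 912 were higher in cDC1s and 71 in T-bet- cDC2s. Just inside the thresholds lay a window at Serpina9 with a fold of 1.5004, a window at Cacnb2 with a lowest value of 3.0115 CPM and a window at Ccdc149 with means 1.4983-fold apart. Just outside lay windows at Zbtb18 (1.4994), Wnk2 (2.9947 CPM) and Bend6 (1.5002).

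The windows with the largest differences held 0.397 to 2.69 CPM in T-bet+ cDC2s. The window 727 bases outside Sh2d6, which encodes an SH2-domain adaptor, held 6.59 and 5.19 CPM in T-bet- cDC2s, 6.27 and 5.5 CPM in cDC1s and 0.397 and 0.499 CPM in T-bet+ cDC2s, that is 4 and 5 reads. An intron of Abcc4, an exporter of cyclic nucleotides and prostaglandins, held 11.7, 11.9, 14.2 and 16.1 CPM in the open libraries against 1.69 and 0.798 CPM. In these and the other 9 windows of this group no T-bet+ value exceeded 2.69 CPM, and each lay below the 4 open libraries of its window. The intronic window of Aoah, which encodes a lipase that inactivates bacterial lipopolysaccharide, was more open in cDC1s than in T-bet- cDC2s, with 7.07 and 7.84 CPM in T-bet- cDC2s, 11.4 and 10.5 CPM in cDC1s, and 0.397 and 1.40 CPM in T-bet+ cDC2s. Of these 11 windows, 10 were in introns and 1 in a promoter, and all but the Igf1os window still met the rule with TMM.

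**Figure D2:**
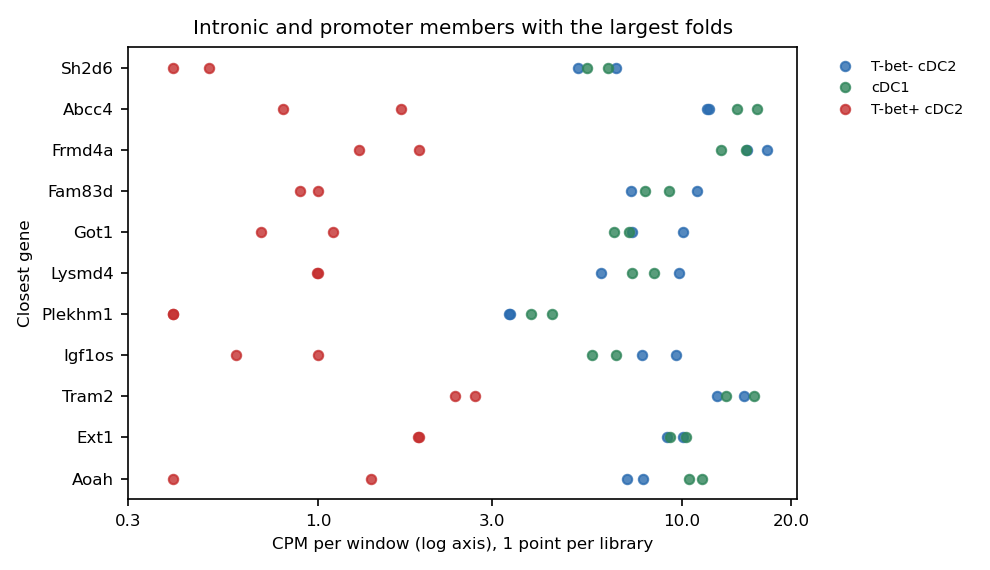
CPM per library, on a log axis, of the 11 intronic and promoter members with the largest ratio of the lowest open library to the higher T-bet+ cDC2 library (0.5 CPM added to each), named by closest gene. The T-bet+ cDC2 points lie at 0.397 to 2.69 CPM, left of all T-bet- cDC2 and cDC1 points of the same row.

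The most open members behaved differently, with smaller folds and high levels in all 6 libraries. The highest was the promoter window of Fbxo4, an F-box component of a ubiquitin ligase, at chr15:3979500-3979649, with 98.8 and 93.6 CPM in T-bet- cDC2s, 101 and 109 CPM in cDC1s, and 49.5 and 55.3 CPM in T-bet+ cDC2s. Fbxo4 also had the most members, 5 of its 8 windows, all in its promoter, where the 4 other windows held 3.58 to 47.9 CPM in the open libraries and 0.694 to 21.5 CPM in T-bet+ cDC2s. An intronic window of Cd36, a scavenger receptor for lipids, held 48.9, 55.7, 86.2 and 69.5 CPM in the open libraries and 21.7 and 27.0 CPM in T-bet+ cDC2s. The remaining windows of this group lay at the starts of Tmtc3 and Slc35f5, 29660 bases outside Atp10a, and at chr10:125749146-125749295, which had no listed gene within 50000 bases.

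Other windows and whole peaks around the members were counted from the same libraries as the rule and are not independent of it. The 1396 members lay in 1274 peaks, of which 107 held 2 or more members, and 57 members (4.08%) overlapped another member and so shared reads with it. Over whole peaks that held a member, all 4 open libraries exceeded both T-bet+ libraries in 1177 (92.4%), with a median ratio of 2.16. These whole-peak values contain the members' own reads, and in 298 of the peaks (23.4%) every window was a member. Among the 2588 other windows of these peaks, which did not meet the rule, the lowest open library exceeded the higher T-bet+ library in 48.1%, compared with 17.2% of all windows, and the reverse order held in 1.0%. At the gene level, 25 of the 45 windows closest to Cadm1, 10 of 19 closest to Sh3pxd2b and 7 of 8 closest to Lyz2 had the 4 open libraries above both T-bet+ libraries, with none in the reverse order at these genes. Other genes with a member had more windows in the reverse order, 22 against 11 of 107 at Bach2, 15 against 7 of 59 at Runx1 and 7 against 2 of 26 at Flt3. Leaving out the members, the 4 open libraries exceeded both T-bet+ libraries in more windows than the reverse at 687 of the 910 genes with a member and another window, in as many at 94 and in fewer at 129. Over these 17746 other windows the shares were 22.9% and 9.6%, beside 17.2% and 11.3% of all windows.

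By position, members resembled the whole set of windows more than the set of strong windows. Promoters, within 2000 bases of a transcript start, held 391 members (28% of members, against 30.1% of all windows and 52.2% of windows at 3 CPM or more in all 6 libraries). Introns held 507 (36.3% against 34.2%), intergenic DNA within 50000 bases of a gene 308 (22.1% against 20.9%), exons 37 (2.65% against 3.67%) and DNA farther from any gene 153 (11% against 11.1%). The median distance to a transcript start was 7731 bases, and 7062 bases over all windows. Median GC content was 48.7%, and 49.3% over all windows. Members were on all autosomes and the X chromosome, from 0.427% of the windows of the X chromosome to 1.10% of those of chromosome 8.

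The rule used no sequence, so the letters of the windows were searched for 26 motifs on both strands. AP-1, the site of Fos and Jun family dimers, matched 226 members (16.2%, against 7.90% of all windows). The Ets-IRF composite, at which PU.1 or SpiB binds together with IRF4 or IRF8, matched 187 (13.4% against 6.80%), the IRF motif (GAAANNGAA) 150 (10.7% against 5.61%) and PU.1, the myeloid Ets factor, 133 (9.53% against 5.5%). At least 1 of these 4 motifs was in 583 members (41.8%), 23.1% of all windows and 25.6% of windows at 3 CPM or more in all 6 libraries. The IRF and Ets-IRF motifs share letters, and 29 members held both. C/EBP matched 8.31% of members (5.89% of all windows) and the E-box CAGCTG 11.9% (8.75%).

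Motifs at the other end of the order were those of the Zeb and T-box families. CAGGTG, the E-box bound by Zeb and Snail repressors, matched 49 members (3.51%) and 10.8% of all windows. The T-box motif (AGGTGTNA), the site of T-bet and Eomes, matched 8 members (0.573%) and 1.92% of all windows. The motifs overlap in the letters AGGTG, and 2 members held both. NF-kB (GGGNNTTCC) matched 2.22% of members and 3.12% of all windows, and Runx (TGTGGTT) 4.66% and 5.23%.

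AP-1, Ets-IRF, IRF and CAGGTG kept their order against all windows when windows were split by GC content at 50%. Ets-IRF matched 16.3% of members and 8.07% of all windows under 50% GC, and 9.72% and 5.34% at or above it. CAGGTG matched 2.57% and 8.06% under 50% GC, and 4.70% and 14.0% at or above it. In promoters AP-1 matched 11.8% of members and 5.42% of all windows, and outside promoters 17.9% and 8.97%. PU.1 kept its order as well, at 9.11% and 5.74% under 50% GC and 10.0% and 5.21% at or above it. Against the windows at 3 CPM or more in all 6 libraries, however, PU.1 differed little (9.53% of members and 7.83%). AP-1 (16.2% and 8.93%), Ets-IRF (13.4% and 7.08%) and IRF (10.7% and 5.33%) differed more from these windows. Larger differences went with more AP-1 and Ets-IRF matches: AP-1 matched 13.3% of the 188 members whose means differed by under 2-fold, 14.4% of those from 2 to 3-fold, 20.1% from 3 to 4-fold and 22.3% of the 157 at 4-fold or more. Ets-IRF went through 10.6%, 12.8%, 14.4% and 17.8% over the same steps, while CAGGTG went from 6.38% to 3.81%, 1.52% and 1.91%. PU.1 showed no such order (8.51%, 9.15%, 11.7% and 8.92%).

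The same rule with another subset left out gave 1110 windows shared by T-bet+ cDC2s and cDC1s (low in T-bet- cDC2s) and 3651 shared by the cDC2 subsets (low in cDC1s). CAGGTG matched 22.4% and the T-box motif 5.14% of the windows low in T-bet- cDC2s, the highest shares of the 3 sets for these motifs. Ets-IRF matched 9.46% of the windows low in T-bet- cDC2s and 5.89% of those low in cDC1s, and IRF 6.40% and 4.79%, both below the members. AP-1 was as frequent in the windows low in cDC1s (16.6%), and PU.1 was most frequent in the windows low in T-bet- cDC2s (12.6%). NF-kB (7.09%) and Runx (11.1%) were most frequent in the windows low in cDC1s. A match is a string of letters and was not tested as a binding site.

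**Figure D3:**
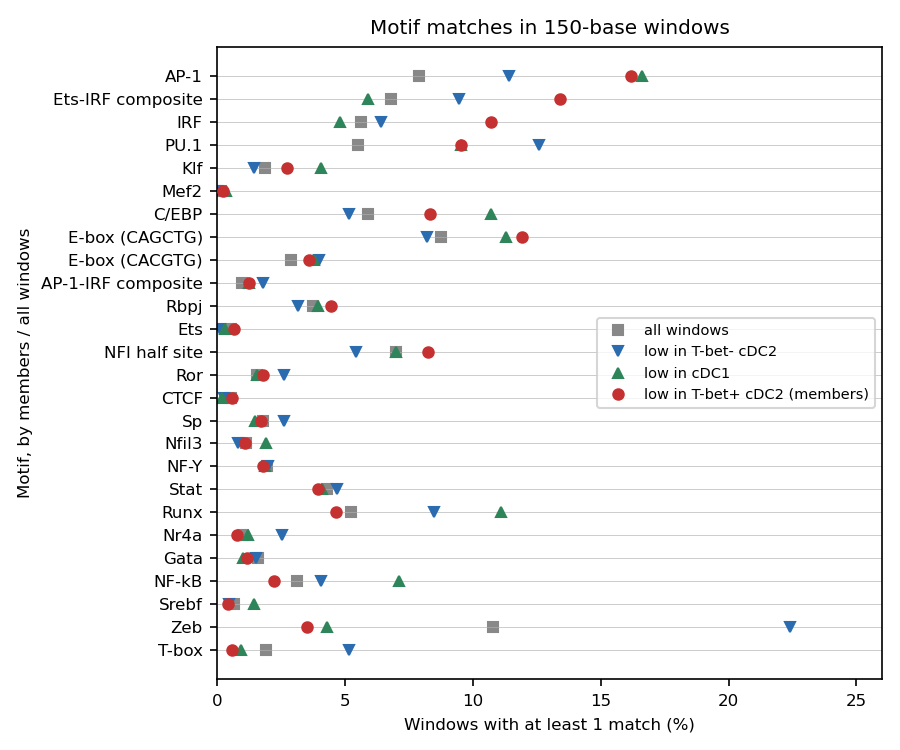
Percent of 150-base windows with at least 1 match on either strand for the 26 motifs, in the 1396 members (red circles), all windows (grey squares) and the windows low in T-bet- cDC2s (blue) or in cDC1s (green), ordered by the ratio of members to all windows. AP-1 (16.2% of members against 7.90%) stands at the top and the T-box motif (0.573% against 1.92%) at the bottom.

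To ask whether the genes beside the windows followed the same pattern in RNA, each window was joined to the closest gene within 50000 bases. This gave 916 genes in the RNA count table, 758 with 1 member and 158 with 2 or more, and 258 with a member in their own promoter. Of these, 736 passed the filter on low counts in spleen and 744 in MLN, so the counts below do not cover the weakly expressed rest. RNA levels come from sorted bulk populations, in which fewer cells that express a gene and less RNA per cell cannot be told apart.

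Where genes beside members differed between the cDC2 subsets, most had less RNA in T-bet+ cDC2s. Of the 736 genes, 82 (11.1%) were lower in T-bet+ cDC2s (adjusted p under 0.05, quasi-likelihood test of edgeR), beside 3.44% of all 14377 genes tested. Only 9 (1.22%) were higher, beside 1.95% of all genes. The median log2 fold change was -0.33 (-0.01 over all genes). Of the 236 tested genes with a member in their promoter, 39 (16.5%) were lower and 0 higher (6 were higher at an unadjusted p under 0.05). Of the 134 tested genes with 2 or more members, 22 (16.4%) were lower and 1 was higher. Thus most genes beside members, 645 of 736, did not pass the test in either direction.

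The count of 91 genes was 154 with DESeq2, where 138 (17.8%) were lower and 16 (2.06%) higher, beside 5.19% and 3.48% of all genes. It was 153 of 907 genes with no filter on low counts, where 127 (14%) were lower and 26 (2.87%) higher, beside 2.4% and 2.36%. It was 53, 47 and 53 without T-bet+ replicates 1, 2 and 3, and 57 and 59 without T-bet- replicates 1 and 2. The T-bet+ libraries all belonged to the higher class of GC correlation described above, and with this class as a term in the fit 76 genes were lower and 6 higher (10.3% and 0.815%, beside 2.99% and 1.68% of all genes).

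Against cDC1s, 137 of the 736 genes (18.6%) were lower in T-bet+ cDC2s, beside 8.2% of all genes, and 72 (9.78%) were higher, beside 9.97%. With a member in the promoter, 56 of 236 (23.7%) were lower and 19 (8.05%) higher. Between the subsets that share the windows, 108 genes (14.7%) were higher in T-bet- cDC2s than in cDC1s, beside 9.65% of all genes, and 85 (11.5%) were lower, beside 6.2%, with a median log2 fold change of -0.04. At these 193 genes RNA levels differed between the subsets whose member windows were alike by the rule. The rule did not cover the other windows of these genes. By the same rule with cDC1s left out, 2 windows at Arhgef10l, 2 at Zeb2, 1 at Csf1r and 0 at Lyz2 were low in cDC1s. The order of the counts of higher and lower genes turned without T-bet- replicate 3 (107 higher and 116 lower) and without cDC1 replicate 1 (71 and 77). All 3 T-bet+ libraries lay below all 6 others in 114 of the 736 genes (15.5%, beside 5.93% of all genes) and above all 6 in 35 (4.76%, beside 7.09%). The comparisons share libraries and are not independent of each other.

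Genes of the other window sets showed other balances. Of 653 tested genes beside windows low in T-bet- cDC2s, 48 (7.35%) had more RNA in T-bet+ cDC2s than in their T-bet- counterparts and 24 (3.68%) less. Of 1696 beside windows low in cDC1s, 47 (2.77%) were higher and 100 (5.90%) lower, while 396 (23.3%) were higher in T-bet+ cDC2s than in cDC1s and 137 (8.08%) lower. Some genes were beside windows of more than 1 set, and the differences between the sets were not tested.

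**Figure D4:**
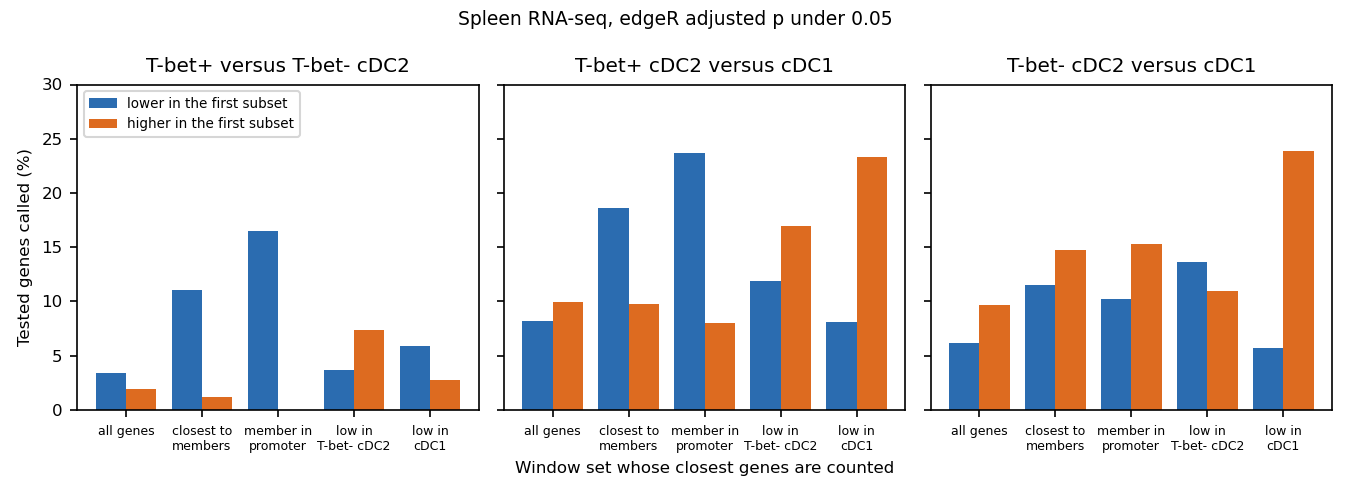
Percent of tested genes called lower (blue) or higher (orange) in the subset named before "versus", in the 3 spleen comparisons, for all 14377 genes, the 736 closest to members, the 236 with a member in the promoter, and the genes closest to windows low in T-bet- cDC2s or in cDC1s. In the left panel genes beside members were lower in 11.1% and higher in 1.22%, beside 3.44% and 1.95% of all genes.

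The genes that were lower in T-bet+ cDC2s than in both other subsets included several with members in their promoter. Lyz2, which encodes lysozyme of myeloid cells, had 2 members in its promoter (3.76 to 5.52 CPM in the open libraries and 0.992 to 2.38 CPM in T-bet+ cDC2s). Its RNA was at 10200, 8460 and 6500 CPM in T-bet- cDC2s, 1290, 804 and 767 CPM in cDC1s, and 241, 166 and 222 CPM in T-bet+ cDC2s. The 3 groups did not overlap, and T-bet+ cDC2s were lower than T-bet- cDC2s (log2 fold change -5.32 ± 0.30 SE, adjusted p = 4.43e-05) and than cDC1s (-2.19 ± 0.26, adjusted p = 0.000422). Lyz1 is a close copy of Lyz2, and reads common to such copies were lost because uniquely aligned reads were kept.

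Plin2, which coats lipid droplets, had 2 members at its start, the higher with 13.9 to 18.6 CPM in the open libraries and 3.97 and 5.58 CPM in T-bet+ cDC2s. Its RNA stood at 207, 243 and 136 CPM in T-bet- cDC2s and 308, 266 and 318 CPM in cDC1s, and at 22.9, 30.9 and 24 CPM in T-bet+ cDC2s. T-bet+ cDC2s lay below both (-2.91 ± 0.26, adjusted p = 0.00038, and -3.52 ± 0.27, adjusted p = 2.34e-05), and the open subsets did not differ at this threshold (-0.61 ± 0.24, adjusted p = 0.131). Npc2, which binds cholesterol in lysosomes, had a similar profile with 335 to 521 CPM in T-bet- cDC2s, 385 to 528 CPM in cDC1s and 125 to 150 CPM in T-bet+ cDC2s. Its levels in the open subsets overlapped (-0.05 ± 0.21, adjusted p = 0.909), while T-bet+ cDC2s were lower than T-bet- cDC2s by 1.66 on the log2 scale (adjusted p = 0.00251).

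Ocstamp, a membrane protein known from osteoclast fusion, had the promoter window printed above, 1665 bases outside the gene. It held 11.4 and 9.97 CPM in T-bet- cDC2s, 15.1 and 14.9 CPM in cDC1s, and 2.58 and 2.79 CPM in T-bet+ cDC2s. Ocstamp RNA was at 45.9, 66.0 and 92.5 CPM in T-bet- cDC2s, 159, 123 and 107 CPM in cDC1s, and 3.31, 3.68 and 2.04 CPM in T-bet+ cDC2s. T-bet+ cDC2s lay well under all 6 other libraries (-4.50 ± 0.37 and -5.43 ± 0.38). Gng12, a G protein gamma subunit, was at 10.5 to 24.5, 52.4 to 59.9 and 0.253 to 1.28 CPM in T-bet- cDC2s, in cDC1s and in T-bet+ cDC2s. Sh3pxd2b, an adaptor of podosomes, had 4 members and was at 7.26 to 9.41, 37.0 to 50.5 and 0.0381 to 0.240 CPM in the same order. Its promoter member, inside the gene 1977 bases from a transcript start, had 31.5 and 39.3 CPM in T-bet- cDC2s. The same window had 46.8 and 45.0 CPM in cDC1s, and 6.25 and 7.58 CPM in T-bet+ cDC2s.

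Other genes were lower in T-bet+ cDC2s with more RNA in cDC1s than in T-bet- cDC2s. Irf8, the factor on which cDC1s depend, had a member inside the gene 1734 bases from a transcript start, with 5.39, 5.19, 4.39 and 4.26 CPM in the open libraries and 0.893 and 2.39 CPM in T-bet+ cDC2s. Irf8 RNA was at 3860, 3700 and 2600 CPM in cDC1s, 147, 246 and 429 CPM in T-bet- cDC2s, and 60.9, 48.6 and 73.5 CPM in T-bet+ cDC2s. The groups were separate, and T-bet+ cDC2s were lower than T-bet- cDC2s (-2.17 ± 0.37, adjusted p = 0.00979), although the window level was alike in T-bet- cDC2s and cDC1s. Cd36 RNA was at 449 to 772 CPM in cDC1s, 32.5 to 109 CPM in T-bet- cDC2s and 2.2 to 6.89 CPM in T-bet+ cDC2s. Serpinb8, a serine protease inhibitor, Plpp1, a lipid phosphatase, Itga1 and Itga8, integrin alpha chains, and Cadm1, an adhesion molecule and cDC1 marker, had the same order of the 3 subsets. The lower level of Itga8 in T-bet+ cDC2s against T-bet- cDC2s (-5.47 ± 1.01, adjusted p = 0.0138) did not pass without T-bet+ replicate 2. The summed level of the 8 cDC1 markers, among them Irf8 and Cadm1, moved in part with this order, at 6250 to 7130 CPM in cDC1s, 235 to 577 CPM in T-bet- cDC2s and 143 to 237 CPM in T-bet+ cDC2s, with 7 of the 8 reaching 1 CPM in T-bet+ cDC2s and none at 0 in all libraries of a subset. Much of the T-bet- cDC2 sum was Irf8 itself, at 147, 246 and 429 CPM. Between the T-bet- and T-bet+ cDC2s, Xcr1 went with the order (6.84 to 12.3 against 4.28 to 6.75 CPM). Batf3, also on the list, went against it (31.3 to 75.5 against 80.9 to 147 CPM). The part of the 8 markers in these results was not tested.

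Csf1r, the receptor of macrophage colony-stimulating factor, showed the reverse order of the open subsets. Its promoter member lay inside the gene, 1856 bases from a transcript start. This window held 17.1 and 16.9 CPM in T-bet- cDC2s, 18.4 and 22.7 CPM in cDC1s, and 8.13 and 8.28 CPM in T-bet+ cDC2s. Csf1r RNA, however, was at 2930, 1810 and 2320 CPM in T-bet- cDC2s, 26.2, 32.6 and 40.1 CPM in cDC1s, and 253, 198 and 229 CPM in T-bet+ cDC2s. T-bet+ cDC2s were thus lower than T-bet- cDC2s (-3.38 ± 0.25, adjusted p = 0.000139) but higher than cDC1s (2.78 ± 0.24, adjusted p = 5.37e-05). In cDC1s the window 1856 bases from a start was at least as open as in T-bet- cDC2s. Of the 13 windows closest to Csf1r, 2 were members and another 1 was shared by the cDC2 subsets and low in cDC1s. Arhgef10l, a guanine nucleotide exchange factor with a member in its promoter, had 38.2 to 61.1 CPM in T-bet- cDC2s, 2.74 to 7.29 CPM in T-bet+ cDC2s and 0.118 to 0.280 CPM in cDC1s. Cd93, a C-type lectin receptor, and Clec5a and Trim16 were also highest in T-bet- cDC2s and lower in T-bet+ cDC2s, at 10.2 to 13.6, 12 to 20.7 and 4.06 to 7.03 CPM against at most 1.88, 0.686 and 0.505 CPM.

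The monocyte and macrophage markers moved in part with these genes. The summed CPM of 7 such markers, which include Fcgr1 beside 2 members, was 424 to 725 in T-bet- cDC2s, 369 to 436 in T-bet+ cDC2s and 82.2 to 163 in cDC1s. None of the 7 was at 0 in all libraries of a subset, and the sort excluded CD64+ and Ly6C+ cells. Their part in the results for Lyz2, Csf1r and Fcgr1 was not tested.

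The 9 genes that were higher in T-bet+ cDC2s (Camkk1, Cdhr3, Ctnnd2, Cyp2s1, Dkk2, Lrrc16a, Rassf6, Rrm2 and Tespa1) lacked a member in their own promoter. Tespa1, an adaptor of T cell receptor signalling, was at 32.5, 32.5 and 25.7 CPM in T-bet+ cDC2s, 5.60, 3.72 and 4.56 CPM in T-bet- cDC2s, and 3.34, 1.66 and 2.38 CPM in cDC1s (2.71 ± 0.32 over T-bet- cDC2s, adjusted p = 0.00165). Ctnnd2, delta-catenin, was at 57.6, 53.1 and 56.9 CPM, 8.51 to 11.4 CPM and 1.09 to 1.91 CPM in the same order (2.49 ± 0.26, adjusted p = 0.000843). Cdhr3, a cadherin-related protein, was at 13.4 to 25 CPM in T-bet+ cDC2s, 1.73 to 2.54 CPM in T-bet- cDC2s and at most 0.140 CPM in cDC1s (3.12 ± 0.50, adjusted p = 0.00771). These genes also had windows of the opposite order: in 10 of the 42 windows closest to Cdhr3, 8 of 44 at Ctnnd2 and 5 of 19 at Tespa1, both T-bet+ libraries exceeded all 4 others, and the 4 others exceeded both T-bet+ libraries in 3, 6 and 6 windows.

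Dkk2, a secreted Wnt antagonist, was at 11, 7.15 and 10.3 CPM in T-bet+ cDC2s, 0.925, 0.991 and 2.39 CPM in T-bet- cDC2s, and 0 in all cDC1 libraries, that is at least 68.0-fold higher in T-bet+ cDC2s than a floor of 3 counts per cDC1 library. Its difference between the cDC2 subsets (2.71 ± 0.50, adjusted p = 0.0231) was lost in 7 alternatives, among them leaving out any T-bet+ library or T-bet- replicate 1 or 2. Rgl1, a Ral exchange factor, had a promoter member inside the gene, 1302 bases from a transcript start. This window held 3.11 to 4.68 CPM in the open libraries and 0.298 and 0.598 CPM in T-bet+ cDC2s, 8.07-fold lower by the means. Rgl1 RNA did not follow this order, with 132, 115 and 121 CPM in T-bet+ cDC2s, 66.5, 91.2 and 253 CPM in T-bet- cDC2s, and 1.40, 2.01 and 0.652 CPM in cDC1s. The cDC2 subsets overlapped (-0.16 ± 0.49, adjusted p = 0.892), and cDC1s were lowest. Of the 41 windows closest to Rgl1, 2 were shared by the cDC2 subsets and low in cDC1s. Both T-bet+ libraries exceeded all 4 others in 10 of the 41, and the 4 others exceeded both T-bet+ libraries in 7. Ttn, titin, had a promoter member as well and was higher in T-bet+ cDC2s than in cDC1s (5.39 ± 0.53, adjusted p = 0.000118). Fbxo4, the gene with the most members, was at 0.533, 1.08 and 1.00 CPM in T-bet+ cDC2s and 1.06, 2.48 and 10.5 CPM in T-bet- cDC2s. These subsets overlapped (-2.43 ± 1.01, adjusted p = 0.236). In cDC1s Fbxo4 was at 48.4, 45.1 and 3.78 CPM, above T-bet+ cDC2s (-5.21 ± 1.12 for T-bet+ cDC2s against cDC1s, adjusted p = 0.0101).

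**Figure D5:**
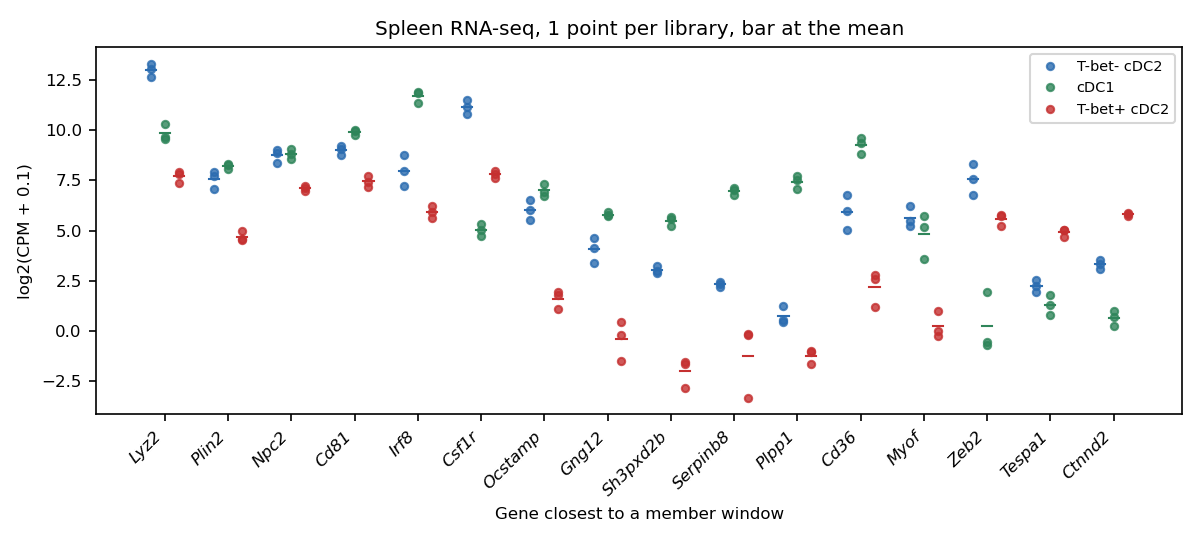
Spleen RNA level, log2(CPM + 0.1), of 16 genes closest to members; points are libraries (3 per subset) and bars are subset means. From Lyz2 to Npc2 and at Cd81, Irf8 and Ocstamp the T-bet+ cDC2 points lie below all others, at Csf1r and Zeb2 they lie between the other subsets, and at Tespa1 and Ctnnd2 they lie above.

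In MLN, where the windows were not measured, the genes leaned the same way but none passed the test between the cDC2 subsets with subset as the only term. With edgeR, 0 of the 744 genes were called in either direction, beside 0.0% of all 15298 genes for higher and 0.0% for lower. At an unadjusted p under 0.05, 108 were lower in T-bet+ cDC2s and 21 higher (872 and 572 of all genes), and DESeq2 called 36 lower and 3 higher of 759 (4.74% and 0.395%, beside 1.4% and 0.631% of all genes). The median log2 fold change was -0.23 (-0.02 over all genes). Lyz2 was at 11700 and 7180 CPM in MLN T-bet- cDC2s, 247 and 785 CPM in T-bet+ cDC2s and 213 to 440 CPM in cDC1s (-4.19 ± 0.67 between the cDC2 subsets, adjusted p = 0.144), so that T-bet+ cDC2s and cDC1s overlapped there. Csf1r was at 1470 and 1020 CPM in T-bet- cDC2s, 207 and 94.5 CPM in T-bet+ cDC2s and 7.21 to 16.8 CPM in cDC1s. Irf8 was at 278 and 494 CPM in T-bet- cDC2s and 45.0 and 250.0 CPM in T-bet+ cDC2s, which did not overlap, but the difference did not pass (-1.39 ± 0.71, adjusted p = 0.618). Other genes of the spleen order overlapped between the cDC2 subsets in MLN. Cadm1 was at 1.18 and 12.8 CPM in T-bet+ cDC2s and at 3.44 and 4.75 CPM in T-bet- cDC2s (0.78 ± 0.86, adjusted p = 0.849), and Plpp1 at 0.434 and 6.18 CPM and at 1.64 and 2.13 CPM in the same order (0.81 ± 0.93, adjusted p = 0.856). Cd36 was at 9.19 and 53.9 CPM in T-bet+ cDC2s and at 48.1 and 39.9 CPM in T-bet- cDC2s (-0.48 ± 0.71, adjusted p = 0.89). At Cadm1, Plpp1 and Cd36 the higher T-bet+ value was that of replicate 2. Xcr1 was also higher in that library, at 5.44 and 36.1 CPM in T-bet+ replicates 1 and 2 (7.99 and 8.05 CPM in T-bet- cDC2s). The summed CPM of the 8 cDC1 markers was 171 to 491 in MLN T-bet+ cDC2s, 422 to 694 in T-bet- cDC2s and 3500 to 7030 in cDC1s. The part of T-bet+ replicate 2 in these overlaps was not tested.

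Against MLN cDC1s, 43 genes (5.78%) were lower in T-bet+ cDC2s, beside 2.11% of all genes, and 37 (4.97%) were higher, beside 4.11%. In T-bet- cDC2s 45 (6.05%) were higher than in cDC1s, beside 4.34%, and 21 (2.82%) lower, beside 1.44%. Both T-bet+ libraries lay below the 5 others in 102 genes (13.7%, beside 7.58% of all genes) and above them in 42 (5.65%, beside 9.05%). Plin2 and Npc2 were again lowest in T-bet+ cDC2s, at 63.5 and 84.3 CPM against 157 to 438 CPM and at 121 and 232 CPM against 408 to 697 CPM. Sh3pxd2b was at 1.26 and 3.48 CPM in T-bet+ cDC2s, 6.39 and 4.91 CPM in T-bet- cDC2s and 25 to 35.2 CPM in cDC1s. The 66 genes of T-bet- cDC2s against cDC1s fell to 15 and 19 without T-bet- replicates 1 and 2 and to 35 without cDC1 replicate 3. With fewer libraries or a stricter threshold the split of the 80 genes turned, to 18 higher and 16 lower without T-bet+ replicate 1, 17 and 15 without cDC1 replicate 3, and 13 and 9 at an adjusted p under 0.01. Both T-bet+ libraries, cDC1 replicate 1 and T-bet- replicate 1 belonged in MLN to the lower class of GC correlation (-0.313 to -0.0342) and the other 3 libraries to the higher (0.202 to 0.25, over 7824 genes). With this class as a term the 80 genes became 37, of which 26 (3.49%) were lower and 11 (1.48%) higher, beside 1.09% and 1.59% of all genes. The 80 of T-bet+ cDC2s against cDC1s fell to 34 without T-bet+ replicate 1, 48 and 47 without T-bet- replicates 1 and 2, and 51 and 32 without cDC1 replicates 2 and 3.

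By function, 36 of 245 genes in 8 lists of dendritic cell biology were closest to a member. All 5 such genes of the list of Fc receptors, integrins and adhesion molecules, namely Cadm1, Cd36, Cd81, Fcgr1 and Itga1, had less RNA in T-bet+ cDC2s than T-bet- cDC2s of spleen, with a median log2 fold change of -3.46 (-0.79 over all 28 genes of the list, 12 of which were lower and 1 higher). Cd81, a tetraspanin, was at 430 to 603 CPM in T-bet- cDC2s, 145 to 211 CPM in T-bet+ cDC2s and 856 to 1050 CPM in cDC1s. Against cDC1s 4 of the 5 were lower in T-bet+ cDC2s, and Fcgr1, at 5.14 to 7.63 CPM in T-bet- cDC2s and 0.397 to 0.800 CPM in T-bet+ cDC2s, did not pass (adjusted p = 0.17).

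Of 6 lysosome and lipid genes with a member, Lyz2, Plin2 and Npc2 were lower in T-bet+ cDC2s than in the T-bet- subset and 0 were higher, and 10 of the 21 tested genes of that list were lower. The other 3 did not pass: the cholesterol exporter Abca1 (4.76 to 8.56 CPM in T-bet- cDC2s and 0.0722 to 2.40 CPM in T-bet+ cDC2s, adjusted p = 0.228), Abcg1 and the lysosomal membrane protein Lamp1. Among 10 cytokine and receptor genes with a member, Csf1r was lower and the other 9 (Flt3, Il10, Il15, Il17ra, Il1r1, Il21r, Il6ra, Tgfbr1 and Tgfbr2) did not pass between the cDC2 subsets. Il10, an anti-inflammatory cytokine, had a promoter member inside the gene, 1862 bases from a transcript start. This window was at 9.77 to 11.9 CPM in the open libraries and 3.97 and 4.39 CPM in T-bet+ cDC2s. Il10 RNA in spleen, however, was at or under 1.06 CPM in all libraries. Il21r and Il15 differed from cDC1s in T-bet+ cDC2s, the former higher (2.39 ± 0.30) and the latter lower (-1.87 ± 0.27).

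Tnfsf13b, the B cell survival factor BAFF, was the 1 costimulation gene with a member, and its promoter window was among the more open, with 44.6 and 50.0 CPM in T-bet- cDC2s, 60.2 and 52.7 CPM in cDC1s, and 13.4 and 14.0 CPM in T-bet+ cDC2s. Its RNA was at 9.76, 12.8 and 6.92 CPM in T-bet- cDC2s, 2.56, 2.92 and 4.29 CPM in cDC1s, and 0.419, 1.52 and 1.00 CPM in T-bet+ cDC2s. T-bet+ cDC2s were lowest (-3.32 ± 0.51, adjusted p = 0.00618, and -1.73 ± 0.49, adjusted p = 0.0357). Ccl17, a chemokine for CCR4+ T cells, was the 1 chemokine gene with a member, at 2.27, 4.36 and 1.77 CPM in T-bet- cDC2s, 0.233, 0.158 and 1.07 CPM in cDC1s and 0, 0.0361 and 0 CPM in T-bet+ cDC2s (adjusted p = 0.00787 between the cDC2 subsets). None of the 25 antigen presentation genes had a member. The 4 pattern recognition genes with a member (Clec4d, Mrc1, Nlrp3 and Nod2) did not pass between the cDC2 subsets, although 15 of the 35 genes of that list were lower in T-bet+ cDC2s.

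Of 50 transcription factors, 9 were closest to a member (Bach2, Fos, Irf2, Irf8, Notch2, Rara, Runx1, Tcf4 and Zeb2). Of these Irf8 alone passed the test between the cDC2 subsets. Zeb2, a repressor of the CAGGTG class of E-boxes, was at 318, 108 and 191 CPM in T-bet- cDC2s, 37.5, 54.6 and 53.7 CPM in T-bet+ cDC2s, and 0.505, 0.592 and 3.68 CPM in cDC1s. The cDC2 subsets did not overlap but the difference did not pass (-2.08 ± 0.68, adjusted p = 0.124), and both were higher than cDC1s. Zeb1, the other Zeb factor, was outside the list but also closest to a member. Its RNA overlapped between all subsets, at 18.9 to 32.5 CPM in T-bet+ cDC2s, 11.6 to 29.8 CPM in T-bet- cDC2s and 15.2 to 46.5 CPM in cDC1s (adjusted p = 0.713 between the cDC2 subsets). Among factors of the motifs above that had no member, Irf4 was at 237 to 416 CPM in T-bet+ cDC2s, 89.6 to 149 CPM in T-bet- cDC2s and 5.2 to 14.0 CPM in cDC1s (adjusted p = 0.0516 between the cDC2 subsets). Fos, an AP-1 subunit with a member nearby, was at 3030 to 4130 CPM in T-bet+ cDC2s, 3060 to 3210 CPM in T-bet- cDC2s and 1800 to 2000 CPM in cDC1s, so that the cDC2 subsets overlapped. Spib was at 70.1 to 86.3, 103 to 124 and 8.46 to 13.5 CPM in the T-bet+, T-bet- and cDC1 libraries. Spi1, which encodes PU.1, was at 1320 to 1500, 114 to 1040 and 179 to 1020 CPM in the same order. Junb, an AP-1 subunit, was at 4570 to 5060, 704 to 3750 and 728 to 2710 CPM. Both were highest in the T-bet+ libraries but did not pass between the cDC2 subsets (adjusted p = 0.325 and 0.296). Their low values fell in T-bet- replicates 1 and 2 and cDC1 replicate 3, the lower class of GC correlation. There Spi1 was at 114, 250 and 179 CPM and Junb at 704, 1490 and 728 CPM. In T-bet- replicate 3 and cDC1 replicates 1 and 2 they were at 1040, 1020 and 758 CPM and at 3750, 2710 and 2260 CPM. All T-bet+ libraries were of the higher class, and its part in these orders was not tested.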

How the data were processed

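ATAC-seq and RNA-seq counts of sorted spleen and MLN dendritic cells were used as deposited. Per the labels and the study's methods, the authors aligned ATAC-seq reads to mm10 (GRCm38) with Bowtie2 2.2.5, kept unique reads, shifted them by strand, called peaks and summits with MACS2 2.1.1.20160309 on all replicates together, kept reproducible peaks and counted reads in 150-base summit windows and in whole peaks. RNA-seq reads were aligned by the authors with HISAT2 2.1.0, filtered to unique reads with SAMtools 1.9 and counted on GENCODE genes with R 3.4.0 (versions from the submitters' processing notes). The deposited counts were not normalized, and whether the counting used strand is not given in the sources used here, so genes that overlap on opposite strands cannot be told apart. One sentence of the methods names the reporter gates the other way round, and the sample labels were followed.

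CPM was the count divided by the column sum. Windows were joined to GENCODE M21 genes (19698 of 34047 symbols of the count table matched by name and 237 through RefSeq synonyms). Beside the motifs spelled out in the text, both strands of the windows were searched for AAAGGTCA (the Nr4a receptors), for TAGGTCA (the Ror receptors), for TCACNCCAC (the Srebf factors), for TTANGTAA (the factor Nfil3), for CCGGAAGT (the Ets family), for GAAATGANT (an AP-1 and IRF composite), for AGGGGGCGC (the insulator protein CTCF), for CCACACCC (the Klf family), for GGGGCGGGG (the Sp family), for CTATTTATA (the Mef2 family), for TTCNNNGAA (the Stat family), for TGGGAAA (the factor Rbpj), for CCAATCA (the complex NF-Y), for AGATAAG (the Gata family) and for the E-box CACGTG. RNA counts were filtered with filterByExpr, normalized with TMM and tested with edgeR 4.0.16 (R 4.3.3) in 1 fit per tissue, with subset as the only term and adjustment over all genes tested. Standard errors are the log2 fold change divided by the root of the F statistic. The code was tested on simulated data. DESeq2 1.42.0, other filters, thresholds, gene joins, library subsets and a replicate block were alternatives. The genes named are, per spleen comparison, the 8 lower and 4 higher called genes of largest change whose normalized counts averaged 50 or more and whose compared subsets did not overlap, genes with 5 or more members, and list genes with a member. The windows named are the 12 of largest fold (1 of them is not reported here), the 6 of highest mean and the promoter members of named genes. The genes at the thresholds, the Ocstamp sequence, Tbx21, Zeb1, Irf4, Spib, Spi1, Junb, Xcr1, Batf3 and the genes listed as higher in T-bet+ cDC2s were named outside these rules after their values were seen.

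The members and lists were chosen with earlier results of these data known. Each RNA library pooled cells of 2 mice, and p-values measure only the spread between these libraries. Replicate numbers were not taken to pair the libraries: of 9 same-numbered pairs in spleen 3, and of 6 in MLN 2, had deviations correlated above 0.1. In MLN the titles hold a replicate number and another number in the library name, which differ for both T-bet- libraries. The replicate numbers were used. By the numbers in the names 3 of 5 pairs were above 0.1 (0.036 to 0.411), and a block on them was an alternative chosen after seeing the data.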

Additional observations from a re-analysis of the deposited data

How the results depend on the processing

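The number of members was 694 with both fold limits at 2 (506 of the 1396 kept), 3411 with a minimum of 1 CPM, 776 with 5 CPM and 1690 to 3065 without 1 library (3065, 2326 and 2223 without T-bet+ replicate 2, T-bet+ replicate 1 and T-bet- replicate 1), since fewer libraries must then meet the rule. It stayed within 1.5 times under the other scales and joins (1086 with TMM, 1044 with peak reads, 1911 with both fold limits at 1.25 and 1099 whole peaks). The windows themselves changed more, as 967 of the 1396 were kept with TMM, 1023 with peak reads and 900 with the limits at 1.25. The share in promoters was 20.8% within 1000 bases and 15.8% within 500 bases of a start, and 21% with both fold limits at 2.

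For T-bet+ against T-bet- cDC2s in spleen, 91 genes were called, 154 with DESeq2, 153 with no filter, 42 at an adjusted p under 0.01, 39 with promoter members alone, 45 with a fold of 2 and 47 to 119 without 1 library. For T-bet+ cDC2s against cDC1s the 209 genes became 124 at 0.01, 75 with promoters, 108 with a fold of 2 and 143 to 238 without 1 library. For T-bet- cDC2s against cDC1s the 193 became 104, 60, 99 and 129 to 223. In MLN the 0 genes between the cDC2 subsets became 39 with DESeq2, 63 with no filter, 1 with the compared libraries alone and 0 without any 1 library. The 80 for T-bet+ cDC2s against cDC1s became 165, 181, 49, 37 with the library class as a term, 22 at 0.01, 31 with promoters and 32 to 86 without 1 library. The 66 for T-bet- cDC2s against cDC1s became 142 with DESeq2, 166 with no filter, 23 at 0.01, 17 with promoters and 15 to 89 without 1 library. Fewer genes or samples enter the promoter, fold and left-out settings. For the others the cause was not tested.

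With the replicate block the spleen counts were 50, 161 and 136 and the MLN counts 0, 54 and 47. The replicate numbers were not taken to pair the libraries: 3 of 9 spleen and 4 of 7 MLN libraries correlated best with a library of their own number. With a replicate block on the other numbers of the MLN library names, chosen after seeing the data, the MLN counts were 18 (18 lower, 2.42% beside 0.765% of all genes), 203 (130 lower and 73 higher, 17.5% and 9.81% beside 7.63% and 8.31%) and 197 (113 higher and 84 lower, 15.2% and 11.3% beside 9.26% and 6.94%), and 6 of 7 libraries correlated best with their own number. Of the 36 gene comparisons named by size, Dkk2 lost its call between the cDC2 subsets in 7 alternatives and Itga8 in 1, and none of them changed sign. The split of T-bet- cDC2s against cDC1s in spleen (108 higher, 85 lower) turned without T-bet- replicate 3 (107 and 116), without cDC1 replicate 1 (71 and 77) and with a fold of 2 (49 and 50), and its median of -0.038 was 0.083 with DESeq2 and 0.07 with no filter (0.133 and 0.128 over all genes). The split of T-bet+ cDC2s against cDC1s in MLN (37 higher, 43 lower) turned at an adjusted p under 0.01 (13 and 9), without T-bet+ replicate 1 (18 and 16) and without cDC1 replicate 3 (17 and 15). Depth limits the lowest windows, where the fewest reads in an open library were 22.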
